A study of Drosophila melanogaster with 4 samples.

Results

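Arm 2L is the left arm of chromosome 2 of Drosophila melanogaster, and it carried 225 of the 5954 peaks called for the GFP-tagged transcription factor Lola-PJ in whole embryos. The peaks were taken by their chromosome name alone, so scaffold 2LHet was not counted. They fell into 90 peaks lying wholly between positions 21416715 and 21543666 (release 5), where peaks recur in tandem, and 135 peaks outside that array. The bounds of the array came from the spacing of the peaks themselves. That the array is dense in peaks is therefore a description and not a result of a test.

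The libraries were 2 immunoprecipitates, for which the polyclonal GFP antibody ab290 was used, and 2 input DNA samples, all from embryos collected 0 to 12 h after egg laying. Both groups share the strain lola-RJ-GFP, the genotype PBac{y[+]-attP-3B}VK00033 and a transgene holding the genomic coding region of lola-RJ. The collection protocol in the labels is written for y; bw cn sp flies, and the labels do not say whether the native lola gene was intact. A single peak list was deposited for the series, with no value per library, so no spread between replicates could be measured and the depth of each library is unknown. The series has no immunoprecipitate from untagged embryos among the samples analysed here, so enrichment that needs the tag cannot be told apart from enrichment that does not.

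Lola (longitudinals lacking) is a BTB zinc finger protein known for its part in axon guidance. Alternative splicing joins a shared BTB domain, through which such proteins pair, to many different zinc finger ends, which are thought to give the isoforms different targets. Arm 2L is also known for the tandem cluster of replication-dependent histone genes near its base, whose units each hold a gene for the linker histone H1 and for the core histones H2A, H2B, H3 and H4. These units are known to occur in a longer and a shorter form that differ by an insertion in the spacer between the His1 and His3 genes. In the gene table of release 6, the longest run of neighbouring histone genes on 2L held 111 genes, and the order His4, His3, His1, His2B, His2A occurred 20 times in it. That table was used for names and order only. Which genes lie under the peaks was not determined, because the peaks are in release 5.

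Each peak has a score, the authors' own value, which is treated here as −log10 of a p-value. Over the whole list, 69.2% of the scores lay within 0.01 of −log10 of a Poisson probability with a single mean of 49.15 overlapping fragments. Such a peak is said to be at the fixed background. The list gives no pileup, so the pileup was worked back from the score and divided by that mean to give a fold over background. Each fold therefore restates the score and is not a separate measurement. A score elsewhere is taken to mean that the caller compared the peak with a higher local input, as MACS does by default (the settings used were not stated).

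The array spanned 127 kb. Its 90 peaks made up 40.0% of the peaks of the arm and covered 59.9% of the stretch, or 64.9% when its widest gap is left out. Scores ran from 8.24 to 72.91 with a median of 22.09 (quartiles 14.29 and 32.55), and 59 of the 90 peaks reached the median of the whole list, 16.19. Outside the array, the 135 peaks scored from 6.95 to 80.45 with a median of 14.43 (quartiles 10.53 and 22.26), and 58 reached that level. The score ranges overlapped almost completely, and the highest score of the arm lay outside the array. Of the 20 highest-scoring peaks of the arm, 11 were in the array, and of the top 50, 32 were.

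The peaks at the borders of the array were of ordinary strength for it. The first peak, at 21416715-21417738, scored 27.64, and the last, at 21542888-21543666, scored 28.57. The nearest peak before it, at 21405660-21406078, scored 16.68 and stood 10636 bp away. The nearest after it, at 21984164-21984465, scored 13.00 and stood 440497 bp away. Inside, a single stretch of 9746 bp, from 21440918 to 21450663, held no peak and split the array into a left block and a right block.

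**Figure D1:**
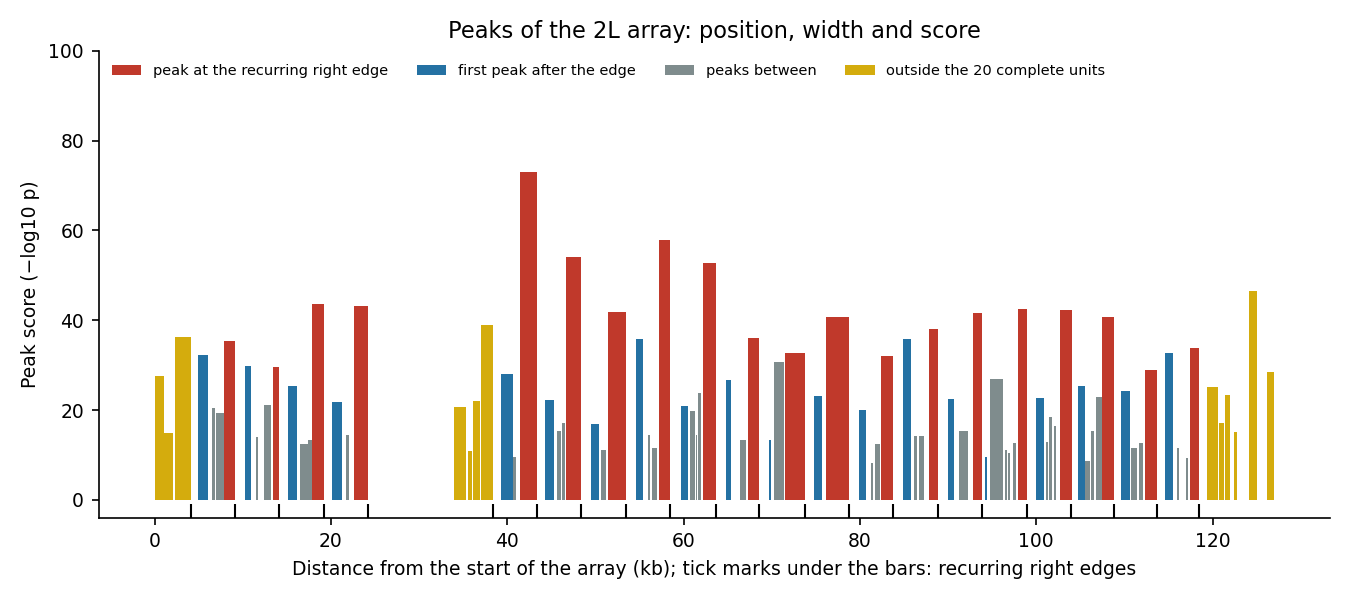
Peaks of the array by distance from its start (x axis, kb) and by score (y axis, −log10 p); bar width is peak width, colour is the place of the peak in its unit, and ticks mark the 22 recurring right edges. The 4 highest peaks stand at recurring edges, the fifth, of 46.49, lies beyond the last edge, and the widest gap, of 9746 bp, separates the blocks.

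Peak coverage in the array repeated itself at a lag of 5040 bp, where its autocorrelation was 0.44. To place peaks within the unit, a recurring right edge was followed from the highest-scoring peak of each block in steps of 5040 bp, taking the nearest peak end within 300 bp each time. This gave 5 edges in the left block and 17 in the right, which bound 20 complete units holding 77 of the 90 peaks and numbered here from the start of the array. The distance from edge to edge was 5010 ± 96.2 bp (mean ± SD over 20 units), with a median of 5039.5 bp and a range of 4825 to 5168 bp. The units share sequence and libraries and are not independent, so their spread describes this locus only.

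The peaks kept to the same places from unit to unit. Counted from the recurring edge, no unit had a peak in the first 334 bp, and no 20 bp step of the first 920 bp was covered in more than 3 of the 20 units. A first zone of peaks, covered in at least 15 units, ran from 1121 to 1960 bp. A dip followed from 2061 to 2240 bp, with at most 5 units covered. Between there and the edge zone, coverage in at least 15 units came in short stretches, the longest of them at 2521 to 2680 bp and at 3001 to 3260 bp. From 3761 bp the edge zone began, and from 4421 to 4820 bp, the end of the shortest units, every unit was covered. The alignment at the edge follows from how units were defined. The step of 5040 bp was taken from the coverage of all array peaks, so the recurrence of the other zones is partly built in as well, and it is given as a description.

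**Figure D2:**
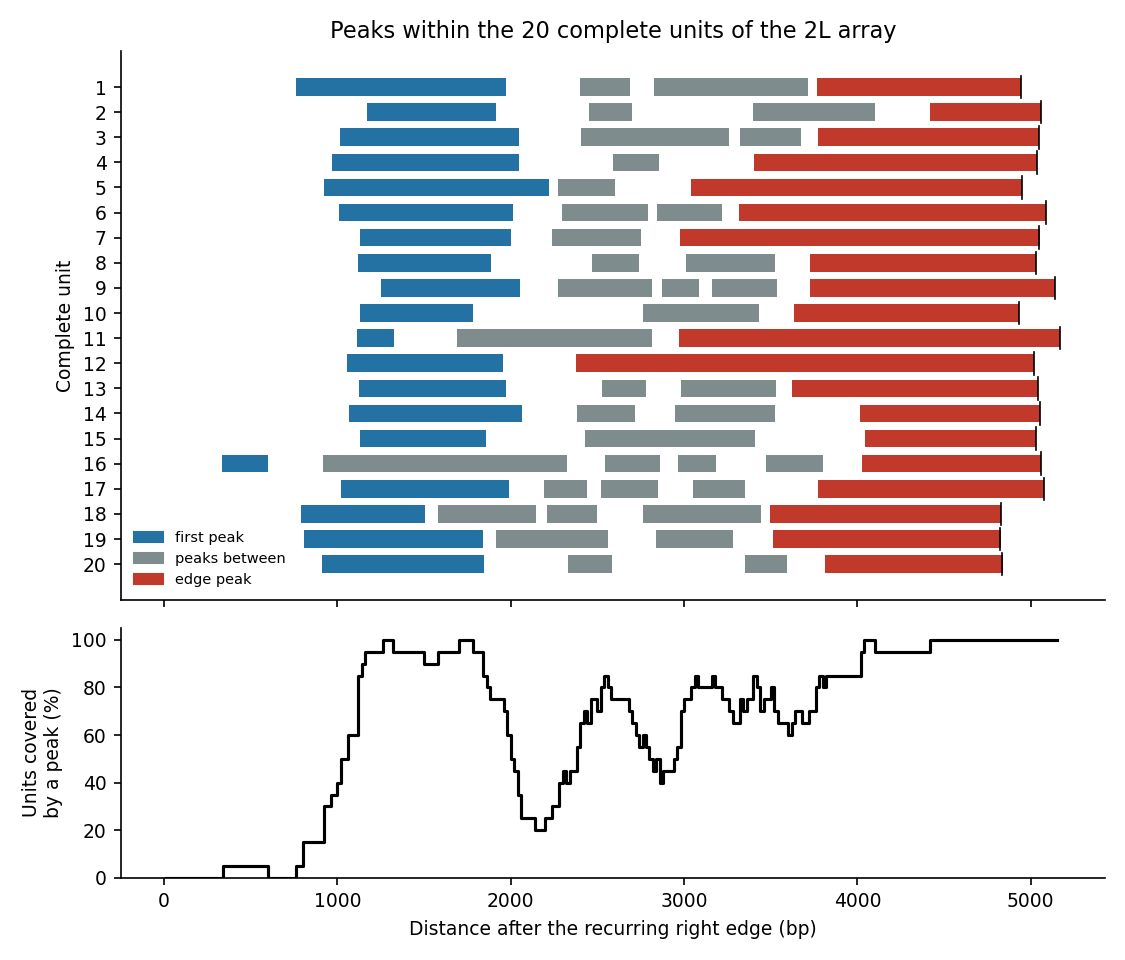
Top, the peaks of each of the 20 complete units (rows) by distance after the recurring right edge (x axis, bp), with a line at the next edge; bottom, the percentage of units covered by a peak in 20 bp steps. The peak-free stretch, the first zone near 1121 to 1960 bp and the edge zone recur in nearly all units.

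The peak that ends at the recurring edge was the strong feature of the unit. The 20 edge peaks scored 28.88 to 72.91 (median 41.12) and were 641 to 2639 bp wide (median 1309 bp). In 19 of the 20 units the edge peak had the highest score, and the exception was unit 2, with 29.61 at the edge and 29.80 in its first peak. The search started from the highest peak of each block, which lay in units 3 and 5, so their ranks were fixed in advance. The position followed was thus itself chosen by score, and the count of 19 is a description. The other edges were found by position only.

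The first peak after the edge was of middle strength. The 20 first peaks scored 9.61 to 35.92 (median 23.64) and were 213 to 1302 bp wide (median 888.5 bp). In 16 of the 19 units that had peaks between, the first peak scored above all of them. The 37 peaks between the first peak and the edge peak were narrower and weaker, with scores of 8.24 to 30.75 (median 14.20) and widths of 213 to 1407 bp (median 374 bp). Peaks were named by their order alone. In units 11 and 16 the first peak scored 13.36 and 9.61, and a peak between scored 30.75 and 26.95. Units held 2 to 6 peaks (median 4). The fewest, 2, were in unit 12, where the edge peak at 21492819-21495457 was 2639 bp wide, the widest of the array. The most, 6, were in unit 16, where a weak peak of 9.61 at 21510919-21511180 lay only 334 bp after the edge.

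The highest scores among the edge peaks of complete units came from neighbouring units. The edge peaks of units 5, 6, 8 and 9, the first units right of the widest gap apart from unit 7, scored 72.91 at 21458131-21460038, 54.18 at 21463356-21465125, 57.78 at 21473904-21475204 and 52.67 at 21478931-21480342. Unit 7 between them scored 41.72 at its edge peak, 21468100-21470175. Every other edge peak of a complete unit scored 43.52 or less. That value belonged to 21434608-21435881 in the left block, followed by 43.11 at 21439284-21440917, the peak that borders the widest gap. In the left block the edge peaks scored 29.61 to 43.52, and in the right block 28.88 to 72.91. An array peak of 46.49, at 21540892-21541735, lay beyond the last edge. How reads from repeat copies were placed is not given, so differences in score between single copies cannot be read as differences in binding.

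The edge is a peak end, so some peak-free stretch right after it in each unit follows from the definition. This stretch was long in all but unit 16. It measured 334 to 1253 bp, with a median of 1035.5 bp (quartiles 917 and 1124 bp), and exceeded 700 bp in 19 of 20 units. Within units, the other 57 gaps between neighbouring peaks measured 51 to 977 bp (median 231 bp), and 14 were under 100 bp. No gap in the whole list was under 50 bp and no peak was narrower than 201 bp, so narrow gaps of this kind are near the limit of what the list resolves.

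The last 3 complete units were the shortest. They measured 4829, 4825 and 4837 bp from edge to edge, against 4931 to 5168 bp (median 5045 bp) in the other 17. Their peak-free stretches measured 791, 805 and 912 bp, against a median of 1066 bp (range 334 to 1253 bp) in the other 17. From the start of the first peak to the next edge, they measured 3924 to 4037 bp (median 4019 bp), against 3798 to 4725 bp (median 3988 bp). By their medians the short units differed from the others in the peak-free stretch and not in the remainder, but the ranges of both measures overlapped. The extremes of 334 and 4725 bp both came from unit 16, where a weak peak lay near the edge. The overlap did not rest on unit 16 alone. Unit 1, also among the other 17, had a peak-free stretch of 760 bp, shorter than in any of the 3 short units, and a remainder of 4181 bp. Over all 20 units, unit 16 included, Spearman's rho was 0.39 between unit length and peak-free stretch. Between unit length and the remainder it was 0.14. The division into short and other units was made at the widest step in the sorted lengths, after the lengths had been seen.

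**Figure D3:**
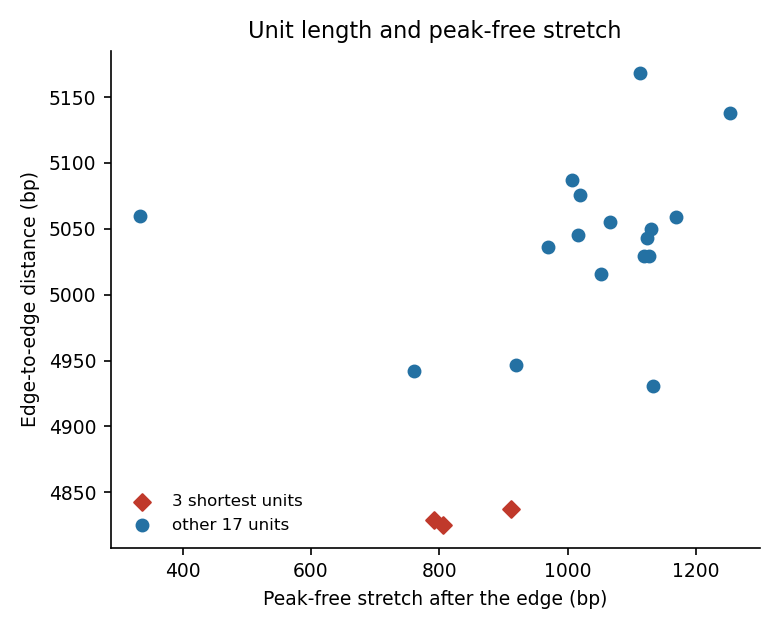
Edge-to-edge distance (y axis, bp) against the peak-free stretch after the edge (x axis, bp), one point per complete unit, with the 3 shortest units as diamonds. The diamonds lie at 4825 to 4837 bp with stretches of 791 to 912 bp, and the point at 334 bp is unit 16.

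The 13 array peaks outside complete units partly followed the same layout. The 3 peaks before the first edge of the left block started 4120, 3043 and 1855 bp before it, and the last of them, with a score of 36.33, ended on it. The 4 peaks right of the widest gap started 4427, 2814, 2242 and 1379 bp before the first edge of the right block, and the edge peak among them scored 38.96. Across the widest gap the edges were 14174 bp apart, 2.81 repeat lengths, so the blocks were not in step. After the last edge a peak-free stretch of 895 bp was followed by 4 peaks whose last end lay at 4227 bp, and no peak ended within 300 bp of the next expected edge. The array then closed with a peak-free stretch of 1453 bp, a peak of 46.49 at 21540892-21541735, a stretch of 1152 bp and the last peak of 28.57.

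Array peaks were wider than those of the rest of the arm by their median. Array peaks were 213 to 2639 bp wide with a median of 773 bp (95% interval 646 to 971 bp), and 31 of 90 (34.4%) were wider than 1 kb. Peaks outside were 201 to 3080 bp wide with a median of 419 bp (320 to 514 bp), and 22 of 135 (16.3%) were wider than 1 kb. These intervals of the median do not overlap, but they treat peaks as independent, which copies of a repeat are not. The median gap was 319 bp in the array and 61.9 kb outside, which follows from how the array was bounded. In both sets wider peaks scored higher, with a Spearman's rho of 0.81 over 90 array peaks and 0.79 over 135 peaks outside, a description over peaks that share the same libraries.

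Few array peaks were at the fixed background. Over the whole list 69.2% of peaks were. Of the 90 array peaks, 5 were (5.56%, 95% Clopper-Pearson interval 1.83 to 12.5%), and steps in that score range are spaced so that 4.75% of scores at random places would match. Outside the array 73 of 135 peaks were at the fixed background (54.1%, 45.3 to 62.7%), against a matching rate of 5.37%. The share in the array is thus near the rate of accidental matches, and its scores give no fold over the genome-wide background. The match at 21463356-21465125 would stand at 3.93-fold.

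**Figure D4:**
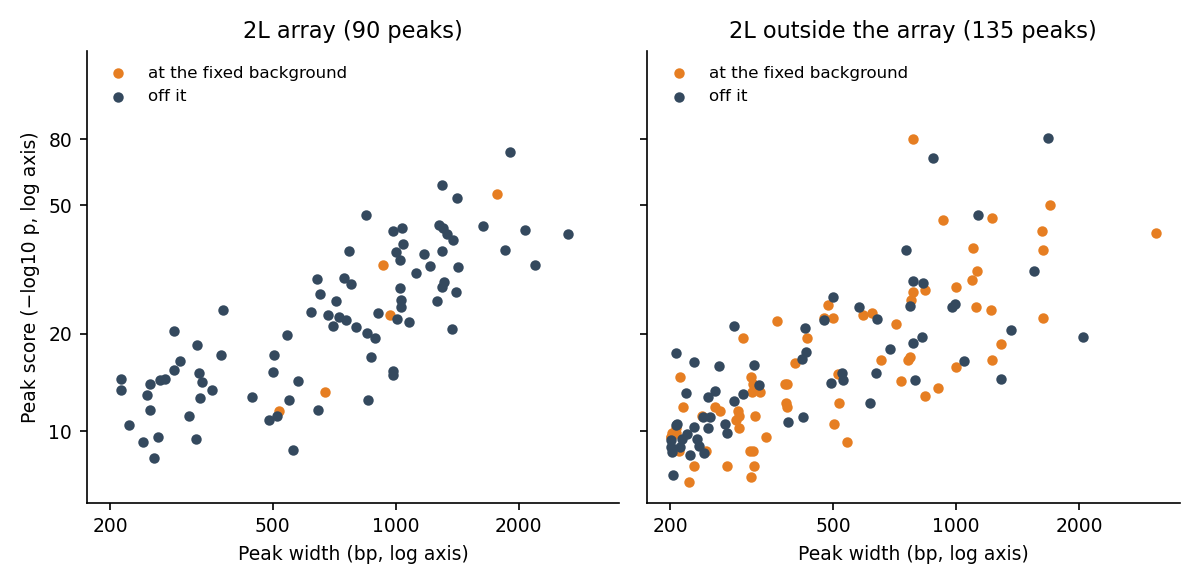
Score (y axis, −log10 p, log axis) against width (x axis, bp, log axis) for the 90 peaks of the array (left) and the 135 peaks of 2L outside it (right), coloured by whether the score is at the fixed background. Only 5 array peaks are at the fixed background, against 73 outside.

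Outside the array the peaks were thinly spread. They came to 6.12 per Mb between the first and the last peak of the arm, against 9.48 on 2R, 8.12 on 3L and 6.65 on 3R, which was not tested. The peaks covered 0.361% of the arm outside the array, against 0.492% of 2R, 0.434% of 3L and 0.394% of 3R. The 22 complete windows of 1 Mb held 5.77 ± 3.37 peaks (mean ± SD), and each held at least 1. The richest window, from 3000001 to 4000000, held 12, and those starting at 9000001 and 15000001 held 1 each. The array's own window, from 21000001 to 22000000, held 3 peaks apart from the 90.

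Wide stretches of the arm had no peak. The widest ran from 9755222 to 10944797, over 1190 kb, and the next from 15210708 to 16288847, over 1078 kb. In all, 12 of the 133 gaps outside the array exceeded 500 kb. The peak before the widest stretch, at 9753602-9755221, scored 41.59 and was itself preceded by 892 kb without a peak. The first peak of the arm stood at 550277. Because depth is unknown, binding in these stretches cannot be judged.

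**Figure D5:**
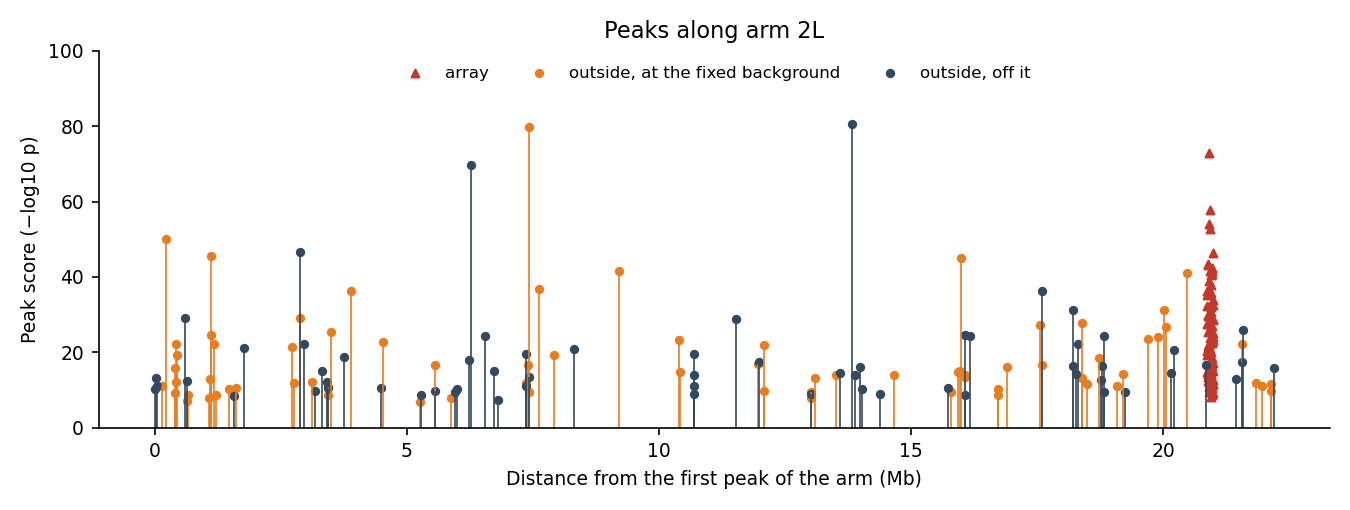
Score (y axis, −log10 p) of the 225 peaks by distance from the first peak of the arm (x axis, Mb), with array peaks as triangles and the others by whether they are at the fixed background. The array stands as a single column near the base of the arm, and the highest scores outside it, 69.78, 79.78 and 80.45, are well apart from each other.

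The 10 highest-scoring peaks outside the array all stood 5766 bp or more from their nearest neighbour. The highest score, 80.45, belonged to 14369761-14371436, a peak of 1676 bp that was not at the fixed background. Next came 79.78 at 7976331-7977115, a peak of 785 bp at 4.74-fold over the fixed background. That fold restates its score, the highest among the peaks of the arm at that background. The third was 69.78 at 6817125-6818002, off the fixed background. After these 3 the scores dropped to 50.06 at 778619-780319, which stood at 3.78-fold.

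The remaining peaks of the 10 highest scored between 36.78 and 46.68. They were 3441620-3442749 at 46.68, off the fixed background, 1677556-1678781 at 45.47 (3.62-fold), 16540452-16541382 at 44.91 (3.60-fold), 9753602-9755221 at 41.59 (3.48-fold), 21020592-21023671 at 41.04 (3.46-fold) and 8170960-8172057 at 36.78 (3.30-fold). Of the 10, 7 were at the fixed background. The peak at 21020592-21023671 was the widest of the arm, at 3080 bp. The narrowest peaks, 4 of 201 bp, scored 8.94 to 9.57. Over the 73 peaks at the fixed background, the fold ran from 1.81 to 4.74 with a median of 2.28.

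Close neighbours were uncommon outside the array. Peaks under 2 kb from the next formed 13 pairs, 2 runs of 3 and 1 run of 4, and the other 99 stood alone. The run of 4, from 11245217 to 11250287, scored 8.99 to 19.55 and ended in a peak of 2050 bp. The runs of 3 lay from 3983214 to 3984319, with scores of 8.65 to 10.84, and from 7915068 to 7917153, with scores of 11.03 to 19.57. None of the 3 runs held a peak of the 10 highest. Of 133 neighbouring pairs, 20 were under 2 kb apart (15.0%, 95% interval 9.43 to 22.3%), against 118 of 569 pairs on 2R, 3L and 3R (20.7%, 17.5 to 24.3%). The difference of -5.70 percentage points did not pass Fisher's exact test (two-sided, adjusted p = 0.147 over 2 tests).

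The share of peaks at the fixed background was higher on 2L outside the array than on the other large autosomal arms together. On 2L it was still below the 69.2% of the whole list. It was 54.1% of 135 peaks on 2L, against 40.7% of 572 peaks on 2R, 3L and 3R (36.7 to 44.9%), a difference of 13.3 percentage points (two-sided Fisher's exact test, adjusted p = 0.0104 over 2 tests). By single arms it was 36.6% on 2R, 47.5% on 3L and 37.7% on 3R, and against 3L alone the difference was 6.60 points and did not pass the exact test (p = 0.265). These tests count peaks of a single list and not arms, so their p-values do not measure how much arms differ among themselves. Neighbouring peaks are also not independent, so these p-values are too small. With 1 peak kept per run of neighbours under 2 kb apart, the difference was 13.6 points (Fisher's exact test, p = 0.011). The median width of 2L peaks was 431 bp at the fixed background and 404 bp off it, and the median scores were 14.30 and 14.47.

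Along the arm, the share at the fixed background of peaks outside the array varied between windows, and this variation was not tested. In successive windows of 5 Mb from the start of the arm, 25 of 39, 11 of 25, 9 of 22, 18 of 32 and 10 of 17 peaks were at the fixed background. These are shares of 64.1%, 44.0%, 40.9%, 56.2% and 58.8%, with intervals that all overlap. The median widths in the same windows were 487, 423, 331, 439.5 and 475 bp, and the median scores 12.43, 15.17, 14.01, 14.54 and 17.48.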

How the data were processed

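Chromatin of 0 to 12 h embryos was cross-linked for 15 min in 1.8% formaldehyde, per the labels' protocols. The deposited list gives start, end and score per peak, called by MACS on release 5 per the file headers. BWA, MACS2, the build BDGP5 and CASAVA in versions 1.7.0.2 and 1.7.0.3 appear in the submitters' processing notes, with no role stated. How replicates and thresholds were set, and how reads from repeat copies such as those of the array were placed, is not given in the sources used here. Deposited scores were taken as −log10 p-values: a background mean between 20 and 120 was chosen on the whole list to match most scores within 0.01. The array bounds are those of the longest run of 2L peaks with gaps under 10 kb. This limit was not varied, and the bounds depend on it. It lies between the widest gap inside the array, 9746 bp, and the 10636 bp to the peak before it. The repeat length was the lag of 3 to 8 kb with the highest autocorrelation of coverage in 10 bp bins. Gaps run from peak end to next start. Shares were compared by Fisher's exact test, which counted peaks or neighbouring pairs and not arms, with Benjamini-Hochberg adjustment over 2 tests. Intervals are 95% Clopper-Pearson (medians: binomial order statistics) and cover counting error only. Named peaks were the 10 highest, the widest and narrowest of each set, runs of 3 or more, and those beside the widest gaps. Python 3.11.15, numpy 2.4.6, pandas 2.3.3 and scipy 1.17.1 were used, and the scripts were tested on simulated data. The members, array bounds and comparisons were chosen with earlier results of these data known. No release 5 genome was used, so no sequence is printed.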

Additional observations from a re-analysis of the deposited data

How the results depend on the processing

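No paired analysis was possible because the deposited list names no library and gives no value for any of them, and leaving out a replicate was not possible either. The repeat length was 5040 bp under all 4 alternatives (20 bp bins, lags of 2 to 12 kb, scores at or above the list median, and the right block alone). The share of the array covered by peaks was 49.5% with scores at or above the list median and 69.2% after merging peaks closer than 500 bp. Merging also left 34 array peaks with a median width of 2540.5 bp and 118 peaks outside with a median of 534.5 bp, since it joins neighbours by construction. The higher share of peaks at the fixed background on 2L passed the exact test with a match within 0.005, with scores at or above the list median and with 1 peak per run of close neighbours. Of the comparisons with single arms, added after seeing the data, it passed against 2R and 3R and not against 3L, where it was 6.60 points (Fisher's exact test, p = 0.265). The share of close neighbours did not pass in any of 3 alternatives. With edges sought within 200 bp, the 3 shortest units dropped out, and the median peak-free stretch was 1066 bp over the other 17 units. It was 1035.5 bp within 400 bp or with scores at or above the list median. All of these settings were chosen after seeing the data. Without read numbers, the depth behind a score is unknown.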
